A study of Mus musculus with 4 samples.

Results

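The aryl hydrocarbon receptor (AHR) pathway was described in mouse kidney through 8 genes, Ahr, Arnt, Ahrr, Cyp1a1, Cyp1a2, Cyp1b1, Tiparp and Aldh3a1. Their 13 probes were those whose RefSeq accession belongs to one of these genes, out of 55681 non-control probes and 20660 genes with a symbol on the array. Total RNA was prepared from kidneys of mice that had undergone either bile duct ligation (BDL), a surgical model of cholestasis in which bile cannot drain, or a sham operation 2 weeks earlier. Each group had 2 biological replicates, each hybridised alone to a Cy3 (1-colour) array. Strain, sex, age and any allele of the mice are not given in the sources used here, and no sorting of cells is stated for the kidney tissue.

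A level is the log2 of a probe's signal divided by its array's 75th percentile of signals, and a difference is the BDL mean minus the sham mean. A probe counted as measured if both arrays of a group, sham or BDL, called it well above background, which held for 9 of the 13 member probes (6 of the 8 genes) and for 32283 probes in all. Well above background were 57.7% to 63.1% of an array's spots and saturated were 0. The number of arrays limits the precision. All 6 proximal tubule markers listed were measured, with a median level between 7.19 and 7.41 on the 4 arrays, and kidney is the labelled tissue. BDL replicate 1 stood apart in urothelial and adipocyte markers, and sham replicate 1 in macrophage and interferon genes, with values given beside the members they touch.

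AHR is a ligand-activated transcription factor of the bHLH-PAS family. It waits in the cytosol in a complex with HSP90, moves into the nucleus when a planar aromatic ligand binds, pairs there with ARNT and binds the xenobiotic response element, whose core reads GCGTG. Its best known targets are the CYP1 monooxygenases, and AHRR and TIPARP are targets that feed back to restrain it. Tryptophan metabolites such as kynurenine and, in cultured cells, the bile pigments bilirubin and biliverdin are among its endogenous ligands.

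The core GCGTG was searched on both strands in the 250 bases before the transcription start of the member genes, in RefSeq promoters of build GRCm38.p6. Entries matched 6 of the 8 genes (not Ahr and Aldh3a1). The core occurred in 5 of them, and in 28.2% of all 32851 promoter windows of this length in the table or in 40.8% of those of measured genes. The promoters of 4 known target genes are shown so that the values below can be set beside the element. The core is in capitals (CACGC where it lies on the opposite strand). The windows are chr9:57697363-57697612 (plus strand) for Cyp1a1, chr17:79715062-79715311 (minus strand) for Cyp1b1, chr3:65528197-65528446 (plus strand) for Tiparp and chr13:74292332-74292581 (minus strand) for Ahrr.
Cyp1a1: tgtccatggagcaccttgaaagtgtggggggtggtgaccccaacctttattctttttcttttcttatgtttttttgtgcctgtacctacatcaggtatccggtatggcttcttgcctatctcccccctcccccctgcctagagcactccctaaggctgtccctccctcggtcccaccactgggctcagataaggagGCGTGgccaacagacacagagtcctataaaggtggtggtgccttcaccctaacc
Cyp1b1: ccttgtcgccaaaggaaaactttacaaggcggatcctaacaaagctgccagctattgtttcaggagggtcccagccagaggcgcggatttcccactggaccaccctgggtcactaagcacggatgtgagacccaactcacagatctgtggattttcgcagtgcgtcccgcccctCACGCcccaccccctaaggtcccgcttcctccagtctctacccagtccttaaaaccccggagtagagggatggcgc
Tiparp: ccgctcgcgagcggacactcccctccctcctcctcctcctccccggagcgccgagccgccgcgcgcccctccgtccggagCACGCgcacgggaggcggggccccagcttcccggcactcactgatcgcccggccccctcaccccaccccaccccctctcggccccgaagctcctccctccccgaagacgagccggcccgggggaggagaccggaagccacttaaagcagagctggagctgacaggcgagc
Ahrr: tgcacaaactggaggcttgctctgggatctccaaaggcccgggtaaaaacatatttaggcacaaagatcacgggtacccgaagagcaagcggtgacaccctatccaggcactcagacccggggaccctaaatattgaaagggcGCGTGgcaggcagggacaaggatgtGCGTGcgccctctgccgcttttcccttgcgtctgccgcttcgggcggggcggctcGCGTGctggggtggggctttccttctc
Ahrr held 3 cores, starting 107, 82 and 27 bases before the start, and 1 of them extended to TNGCGTG, a longer form found in 4.10% of all windows. Cyp1a1 held 1 core 54 bases before the start, Cyp1b1 1 at 76 bases, Tiparp 1 at 170 bases and Arnt 1 at 29 bases. Cyp1a2 held 0. A match is a run of letters and not a site, and the element cluster known for Cyp1a1 lies further upstream than this window. GCGTG is also one form of the core that HIF and ARNT bind together.

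In the kidneys of BDL mice the Cyp1a1 signal was 2.47-fold that of sham kidneys (95% interval 1.42 to 4.30, n = 2 per group), a difference that did not pass limma's adjusted threshold, while the measured probes of the receptor genes Ahr and Arnt, of the feedback gene Tiparp and of the sister enzyme gene Cyp1b1 lay within 0.18 of 0 on the log2 scale. Cyp1a2 and Ahrr were not well above background on any array. Aldh3a1 was high on 1 BDL array alone. Of the 9 measured probes, 0 passed an adjusted p of 0.05 in limma, fitted over all 32283 measured probes with Benjamini-Hochberg adjustment, where 0% of the probes were called. At an unadjusted p under 0.05 the fit held 1 of the 9 member probes (Cyp1a1), against 5.65% of all measured probes. The median difference of the 9 probes was 0.10, beside -0.000638 over all measured probes.

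**Figure D1:**
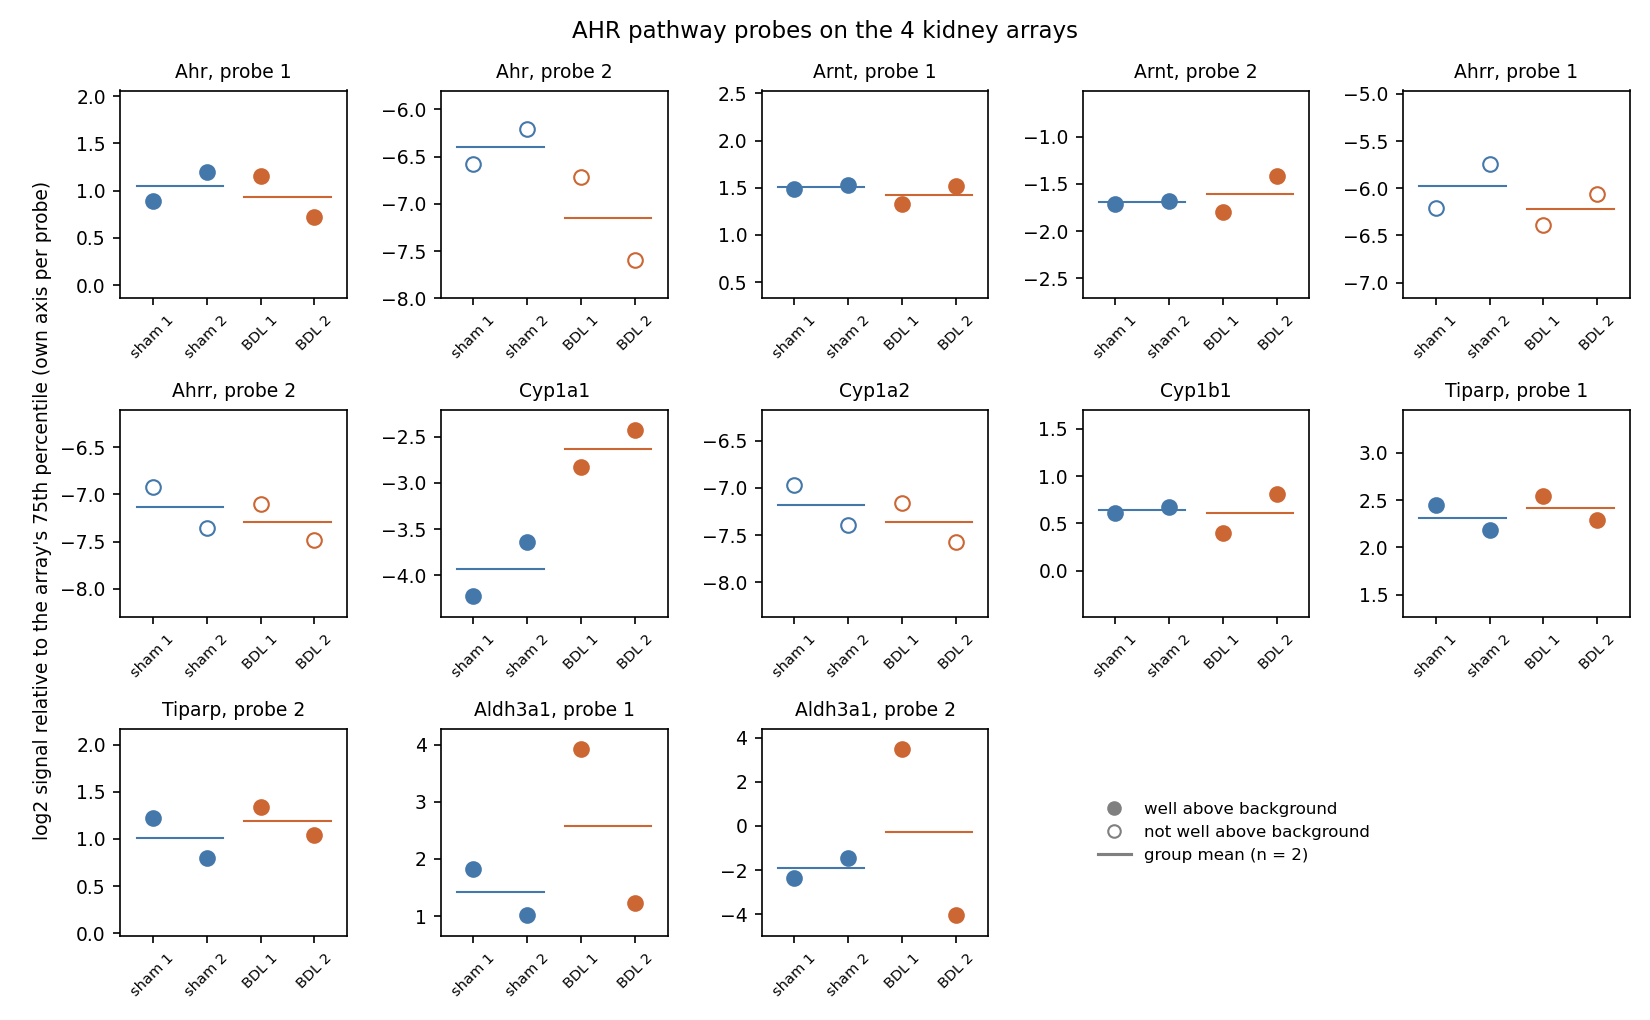
Log2 signal of the 13 AHR pathway probes relative to the 75th percentile of each array, with 1 panel and 1 vertical axis per probe. Points are arrays (blue sham, orange BDL), open where the spot was not well above background, and lines are group means of n = 2. Cyp1a1 lies at -4.23 and -3.64 in sham and at -2.83 and -2.43 in BDL kidneys, and the Aldh3a1 panels have 1 high point, BDL replicate 1.

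Ahr, the receptor itself, read 0.89 and 1.20 in sham and 1.15 and 0.72 in BDL kidneys with its brighter probe. The groups overlapped, with a difference of -0.11 (SE 0.26, limma adjusted p = 0.952). The 95% interval ran from 0.579-fold to 1.48-fold, and these arrays cannot tell changes within it from 0. A further Ahr probe on the same transcript gave signals of 4.90 to 11.5 units, not well above background on any array, against 1322 to 1955 units for the brighter probe, so the probes of this gene disagree on whether it can be detected.

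Arnt, the obligate nuclear partner of AHR and also of the hypoxia-inducible factors, had 2 measured probes. The brighter probe read 1.49 and 1.53 in sham and 1.33 and 1.52 in BDL kidneys, and the other -1.71 and -1.68 in sham and -1.80 and -1.42 in BDL kidneys. Their differences had opposite signs, -0.09 (SE 0.20, adjusted p = 0.951) and 0.09 (SE 0.23, adjusted p = 0.955), with the groups overlapping on both. The spread of the BDL replicates (SD 0.14 and 0.27, n = 2) exceeded that of the sham replicates (SD 0.03 and 0.02) on both probes.

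Tiparp, a mono-ADP-ribosyltransferase (PARP7) that modifies AHR and lowers its activity, was 2.45 and 2.18 in sham and 2.54 and 2.29 in BDL kidneys on the brighter probe. Its second probe read 1.22 and 0.80 in sham and 1.34 and 1.04 in BDL kidneys. In each group replicate 1 was the higher array on both probes, and the groups overlapped. The differences were 0.10 (SE 0.22, adjusted p = 0.948) and 0.18 (SE 0.26, adjusted p = 0.924), and the interval of the second probe ended at 1.80-fold.

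Ahrr, the repressor that competes with AHR for ARNT, gave 9.63 and 15.9 signal units in sham and 8.82 and 14.2 in BDL kidneys with its brighter probe, and 5.20 to 5.86 units with the other. Both Ahrr probes were not well above background on any array, so no difference is given. Its 3 promoter cores, shown above, therefore have no measured level beside them.

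Cyp1a1, the monooxygenase most often read as a sign of AHR activity, was the only member whose groups did not overlap. It read -4.23 and -3.64 in sham and -2.83 and -2.43 in BDL kidneys, or 37.9 and 68.4 against 104 and 176 signal units before scaling. The BDL kidneys were the higher pair, and the lower BDL value was 1.75 times the higher sham value. The difference was 1.31 (SE 0.30, 95% interval 0.51 to 2.11, limma unadjusted p = 0.00920, adjusted p = 0.793), higher in 2 of 2 BDL kidneys.

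BDL values lay above sham values without overlap on 18.2% of all measured probes and below them on 18.5%, so 1 of 9 probes above and 0 of 9 below is no excess. A gap with BDL above sham at least as wide as that of Cyp1a1 (0.81 log2) occurred on 204 probes, or 0.632% of those measured. Gaps of that width with BDL below sham were not counted. By unadjusted p, 1.14% of the measured probes ranked ahead of it.

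The Cyp1a1 probe was well above background on all 4 arrays, yet dim. Its signal was 1.42 and 2.93 times the lowest signal called well above background on the sham arrays, and 4.30 and 7.48 times on the BDL arrays. With another background correction (normexp with an offset of 50) the difference was 0.68, or 1.60-fold (limma adjusted p = 0.859). The offset is about as large as the sham signals of this probe (37.9 and 68.4 units) and by itself draws the difference toward 0. The effect of the background correction alone was not separated from it. Leaving out each array in turn gave 1.01 to 1.60, all above 0.

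**Figure D2:**
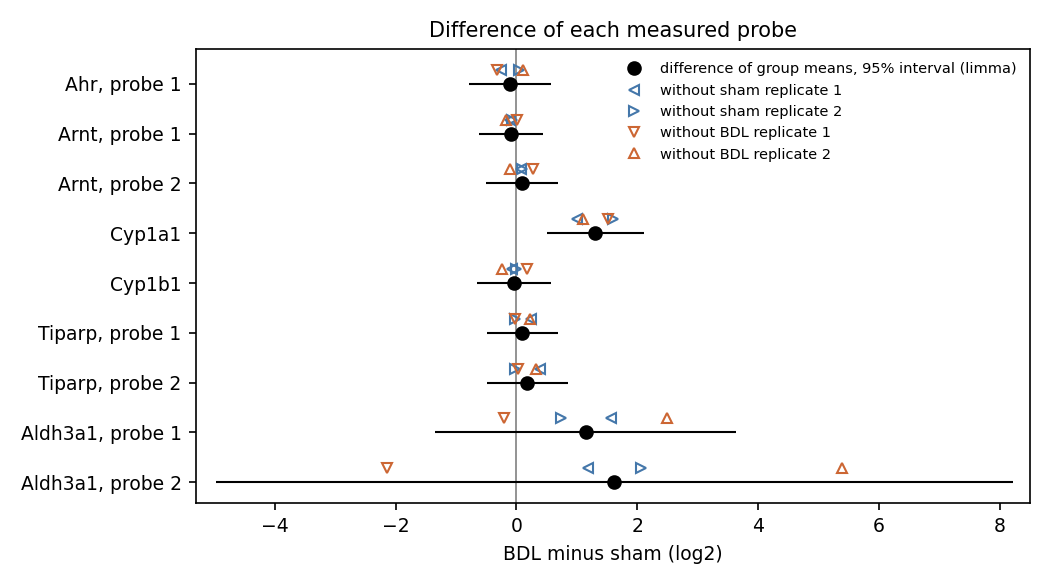
Difference of BDL and sham group means (log2) for the 9 measured AHR pathway probes, with 95% intervals from limma as lines and the value without each array in turn as open triangles. Cyp1a1 keeps 1.01 to 1.60 whichever array is left out, while both Aldh3a1 probes fall below 0 without BDL replicate 1.

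Endothelial cells are a known site of Cyp1a1 induction, and 6 of the 7 endothelial markers had differences above 0 (median 0.18, or -0.07 without sham replicate 1). Their summed signal was 33.7 and 44.5 in sham and 44.2 and 42.1 in BDL kidneys, in multiples of the 75th percentile, so 1 sham array matched the BDL arrays. Of the 7 markers, 1 had the order of arrays seen for Cyp1a1. In whole kidney, more cells of a type and more RNA per cell cannot be told apart, and the part of these cells in the Cyp1a1 difference was not tested.

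Cyp1a2, the liver-typical sister of Cyp1a1 that lies next to it in the genome, gave 5.69 and 5.06 signal units in sham and 5.19 and 4.97 in BDL kidneys. These are about 0.212 to 0.217 times the lowest signal called well above background. Of the 8 hepatocyte markers listed, 7 were measured, with 5 below 0 and a median difference of -0.44. Their summed signal of 248 to 350 in sham and 290 to 328 in BDL kidneys was carried largely by Cyp2e1 (levels of 7.83 to 8.38), which the kidney also expresses, whereas Alb lay between -2.73 and -1.13. Probes of closely related P450 genes can share targets, and the separate values of Cyp1a1 and Cyp1a2 are uncertain to that degree.

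Cyp1b1, which oxidises steroids and polycyclic hydrocarbons in stromal and other cells outside the liver, read 0.61 and 0.67 in sham and 0.40 and 0.81 in BDL kidneys. The BDL values lay on either side of the sham values, and the difference was -0.04 (SE 0.23, adjusted p = 0.982, 95% interval 0.635-fold to 1.49-fold). In the same kidneys, fibroblast and pericyte markers had a summed signal of 28.2 and 28.5 in sham and 42.1 and 29.7 in BDL, with 6 of 8 above 0. Their median difference of 0.17 was -0.02 without BDL replicate 1, the array with the high sum.

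Aldh3a1, an aldehyde dehydrogenase of barrier epithelia that belongs to the classical AHR gene battery, had the widest spread among the members. Its brighter probe read 1.83 and 1.01 in sham and 3.92 and 1.22 in BDL kidneys. Its second probe read -2.36 and -1.47 in sham and 3.48 and -4.06 in BDL kidneys. On both probes BDL replicate 1 was the highest array, while BDL replicate 2 lay between the sham arrays on the first and below both on the second.

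The BDL replicates were 6.50-fold apart on the first Aldh3a1 probe and 187-fold apart on the second. A gap in that direction at least as wide was found on 121 and on 6 of all measured probes. The group differences, 1.15 (SE 0.95, adjusted p = 0.885) and 1.62 (SE 2.50, adjusted p = 0.928), did not pass. They turned to -0.20 and -2.15 without BDL replicate 1, which alone decides their direction.

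The 2 Aldh3a1 probes lay 0.44 to 5.28 apart across the arrays, whereas the probe pairs of Arnt and Tiparp kept a near constant distance (2.94 to 3.22 and 1.20 to 1.38). Both are annotated to the same Aldh3a1 transcript, and which of them follows the gene cannot be told from these files.

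Urothelial markers, which label the lining of the renal pelvis and ureter, were high on the same array as Aldh3a1. All 7 were measured, 6 of them were highest on BDL replicate 1, and the median of the list on that array exceeded its mean over the remaining 3 arrays by 4.14. Their summed signal was 18.3 and 21.2 in sham and 71.1 and 13.7 in BDL kidneys. The uroplakin gene Upk1b read -2.99 and -1.55 in sham and 1.53 and -4.82 in BDL kidneys, and the basal keratin gene Krt5 -1.48 and 0.62 in sham and 2.87 and -2.94 in BDL kidneys. The second Aldh3a1 probe had the same order of arrays as Krt5, with BDL replicate 1 highest, then sham replicate 2, sham replicate 1 and BDL replicate 2. The brighter probe did not, since BDL replicate 1 was followed by sham replicate 1, BDL replicate 2 and sham replicate 2. The keratin gene Krt20 had that order, at -3.54 and -4.93 in sham and 1.81 and -4.82 in BDL kidneys. It was well above background on only 1 sham array.

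The basal marker Trp63 did not take part, at 3.63 to 3.96 on all arrays. Adipocyte genes were also highest on BDL replicate 1, with 2 of 5 measured (Fabp4 and Cidec), a summed signal of 11.7 and 29.5 in sham and 89.5 and 14.1 in BDL kidneys, and the defining genes Adipoq, Plin1 and Lep not well above background on both arrays of either group. The part of urothelium or fat in the Aldh3a1 values was not tested.

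**Figure D3:**
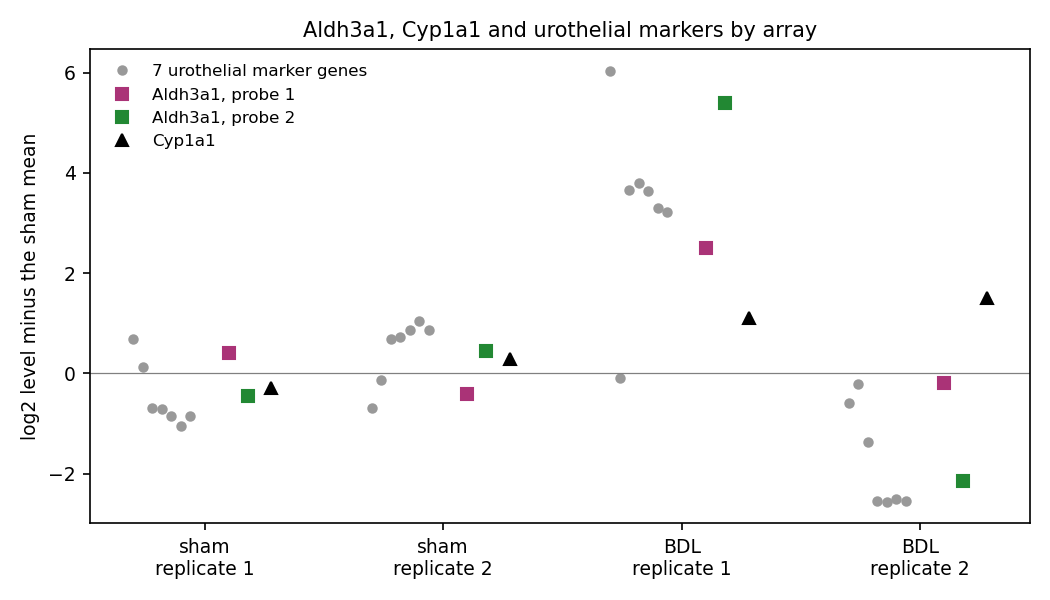
Log2 level of both Aldh3a1 probes (squares), Cyp1a1 (triangles) and 7 urothelial marker genes (grey points) on each array, minus the sham mean of the same probe. On BDL replicate 1 the Aldh3a1 squares and 6 of the 7 markers stand high. On BDL replicate 2 both Aldh3a1 probes and all 7 markers fall below the sham mean, while Cyp1a1 is above it on both BDL arrays.

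Beyond the members, 6 lists of genes around the pathway held 73 entries, of which 61 were measured, each by its brightest measured probe. Of the 61 genes, 0 passed the limma threshold over all measured probes (smallest adjusted p = 0.684), as held for 0% of the 15023 genes with a symbol. Among those genes BDL lay above sham without overlap in 19.1% and below in 18.3%, and their median difference was -0.00274.

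Of 10 partners of the receptor complex all were measured, with 5 above and 5 below 0, a median of 0.03 and no overlap between groups in 1 higher and 2 lower genes. Hsp90ab1, a form of the HSP90 chaperone that holds AHR in the cytosol, read 7.98 and 7.54 in sham and 7.12 and 7.15 in BDL kidneys (-0.62, SE 0.24, adjusted p = 0.867). Hsp90aa1 read 5.66 and 4.83 in sham and 4.79 and 4.81 in BDL kidneys, and its difference of -0.45 became -0.03 without sham replicate 1. The coactivator gene Ep300 differed by 0.26 (SE 0.21), and Arnt2, a relative of Arnt, by -0.19 (SE 0.23). HSP90 genes have near-identical copies in the genome, and their values are uncertain to that degree.

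Further AHR target genes did not share a direction, with 10 of 20 measured members above and 10 below 0 and a median of -0.05. The groups did not overlap in 6 higher and 4 lower genes. Igfbp1, a secreted IGF-binding protein, read 1.68 and 1.14 in sham and -0.14 and 0.05 in BDL kidneys, 2.75-fold lower (-1.46, SE 0.27, adjusted p = 0.684). Fmo2, a flavin monooxygenase, read 4.12 and 4.28 in sham and 5.25 and 4.70 in BDL kidneys (0.77, SE 0.27, adjusted p = 0.867).

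Ugt1a6a, a UDP-glucuronosyltransferase of the AHR battery, read -2.55 and -2.33 in sham and -1.89 and -1.97 in BDL kidneys (0.51, SE 0.21, adjusted p = 0.867). Ugt1a6b differed by 0.06, and since the Ugt1a genes share most of their exons, these separate values are uncertain. Htatip2 was lower, at 1.81 and 1.06 in sham and 0.56 and 0.84 in BDL kidneys (-0.74, SE 0.33, limma adjusted p = 0.867). Its difference was -0.36 without sham replicate 1. The quinone reductase gene Nqo1, the battery member shared with NRF2, differed by -0.15 (SE 0.36) with the groups overlapping. Ugt1a6b and Nqo1 were chosen after their values were seen.

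Kynurenine pathway enzymes, which make and consume tryptophan-derived ligands, had 9 of 11 members measured, 3 above and 6 below 0, with a median of -0.35 that was -0.14 without sham replicate 1 and -0.56 without sham replicate 2. The groups did not overlap in 2 higher and 4 lower genes. Il4i1, an L-amino acid oxidase, was listed and counted with these genes but is not an enzyme of the kynurenine route itself. It read -1.00 and -1.17 in sham and -2.22 and -2.10 in BDL kidneys (-1.08, SE 0.20, limma adjusted p = 0.702), or 2.11-fold lower. Ido2, which opens the indole ring, read 0.26 and -0.39 in sham and -1.78 and -1.29 in BDL kidneys, 2.78-fold lower (-1.47, SE 0.33, adjusted p = 0.793). The formamidase gene Afmid (-0.66, SE 0.30) and the dioxygenase gene Haao (-0.47, SE 0.22) were lower without overlap as well. The higher genes, named after their values were seen, were Kmo and Kynu, which act on kynurenine. Kmo read 4.82 and 4.37 in sham and 5.09 and 4.91 in BDL kidneys (0.40, SE 0.25, adjusted p = 0.868). Kynu read -4.99 and -1.89 in sham and -0.87 and -1.53 in BDL kidneys. Its difference of 2.24 (SE 1.06, limma adjusted p = 0.867) was 0.69 without sham replicate 1, where Kynu was not well above background. Kynu counted as measured through its BDL arrays alone, the group where it was high. Its place among the higher genes depends on that filter, and its difference rests on a sham value at background.

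The first enzymes of the route in liver and immune cells, Tdo2 and Ido1, were not well above background on both arrays of either group. Interferon response genes, among which Ido1 counts in immune cells, were below 0 in 8 of 9 measured members, all 8 without overlap. Of all measured genes with a symbol, 18.3% were lower without overlap. The interferon genes had a median of -1.56 that was -0.80 without sham replicate 1. Their summed signal was 29.9 and 11.6 in sham and 9.21 and 6.99 in BDL kidneys. Macrophage and dendritic markers summed to 260 and 61.0 in sham and 51.0 and 55.6 in BDL kidneys, with sham replicate 1 high in both lists. That array's macrophage sum was carried largely by Cd74, at 7.72 there and 4.17 to 4.37 on the remaining arrays. The median excess of the macrophage list on sham replicate 1 over the remaining arrays was 0.90. T and B lymphocyte markers were lower without overlap in 5 of 7 measured members, beside the same 18.3%. The median of the list was -0.69, or -0.37 without sham replicate 1. The 5 lower genes belonged to both cell types. These were the B cell genes Cd79b (-1.03, or -0.97 without sham replicate 1) and Ms4a1, and the T cell genes Cd3g (-0.95), Cd3e (-0.60) and Cd4 (-0.33). The T cell genes Cd3d (-0.69) and Cd8a (0.63) overlapped between the groups. The BDL signals of Ms4a1 were both not well above background. It was measured through its sham arrays alone, so its place among the lower genes rests on BDL values at background. Without sham replicate 1, Il4i1 was -0.99 and Ido2 -1.15, and the lymphocyte and interferon medians stayed below 0 as well. The macrophage and dendritic median did not, at -0.09 with all arrays and 0.48 without sham replicate 1. The part of immune cells in these values was not tested.

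Other bHLH-PAS partners of ARNT had 5 of 8 members measured, with differences from -0.35 to 0.43 and a median of 0.15 (-0.04 without sham replicate 1). Hif1a, the oxygen-regulated partner, read 1.16 and 1.35 in sham and 1.37 and 1.62 in BDL kidneys (0.24, SE 0.22). Hif3a (0.43, SE 0.36), Sim1 (-0.31, SE 0.44) and Epas1, which encodes HIF-2α (0.15, SE 0.23), overlapped between the groups.

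HIF target genes had 9 of 10 members measured, 7 above and 2 below 0, with a median of 0.12 (-0.02 without BDL replicate 1). Egln3, an oxygen-sensing prolyl hydroxylase, was the only member whose groups did not overlap, at -0.47 and -0.45 in sham and -1.52 and -0.95 in BDL kidneys (-0.77, SE 0.27, adjusted p = 0.867). Ndrg1 (0.37, SE 0.32), the glucose transporter gene Slc2a1 (-0.31, SE 0.39) and Bnip3 (0.19, SE 0.25) overlapped.

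Genes for the electron supply of P450 enzymes and for haem turnover stayed closest together, with differences from -0.17 to 0.25 over 8 of 8 measured members and a median of -0.02, all overlapping between the groups. Hmox2, a haem oxygenase, differed by -0.17 (SE 0.22), and Alas1, the first enzyme of haem synthesis, by 0.25 (SE 0.36). Blvra, which reduces biliverdin to bilirubin, differed by 0.15 (SE 0.28), and the P450 reductase gene Por by -0.10 (SE 0.27).

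**Figure D4:**
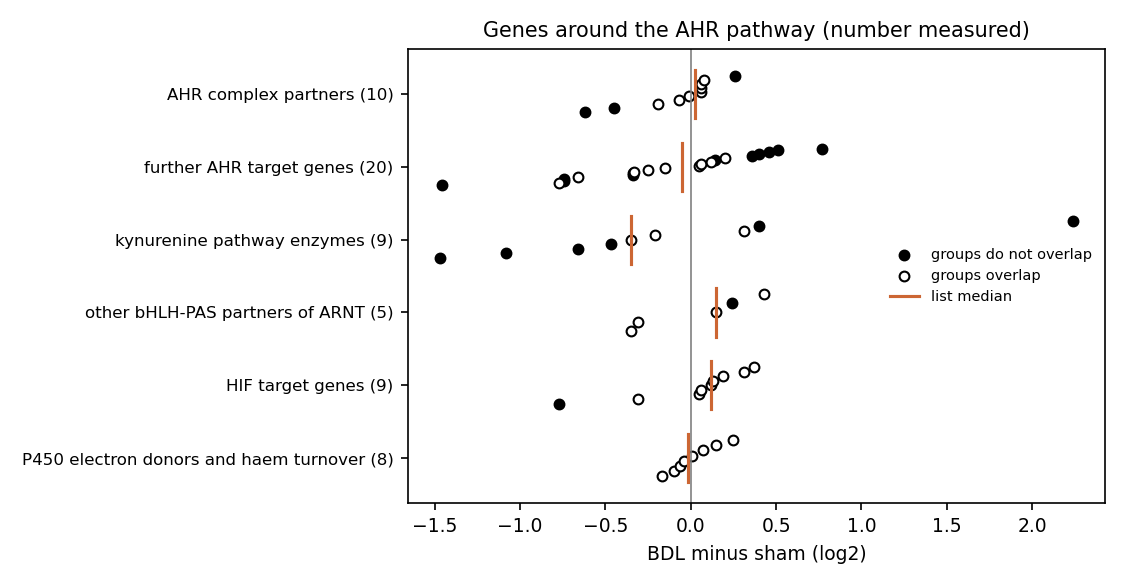
Difference of BDL and sham means (log2) for each measured gene of the 6 lists around the AHR pathway, 1 point per gene, filled where the groups did not overlap, with the list median as an orange line. The medians run from -0.35 for kynurenine pathway enzymes to 0.15 for bHLH-PAS partners of ARNT, and the haem and electron donor genes lie within -0.17 to 0.25.

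The genes whose profile over the 4 arrays was most like that of Cyp1a1, by the root mean square distance of mean-centred log2 levels, were Olfr905 (0.10), Muc1 (0.12) and Plppr3 (0.12), out of 2179 genes with a similar or larger spread. Muc1, a mucin of epithelial surfaces, read -3.53 and -2.66 in sham and -2.15 and -1.74 in BDL kidneys. Olfr905 was well above background only on the BDL arrays, so its distance and place rest on sham values at background. In all, 19 genes lay within 0.20 of the Cyp1a1 profile. For Ahr the nearest were Cage1 (0.01), Irs3 (0.02) and Gfpt2 (0.03) of 11279 genes, with 1198 within 0.20, so that a flat profile over 4 arrays singles out no gene.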

How the data were processed

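The submitters' processing notes name Agilent Feature Extraction 11.0.1.1. Its deposited processed signal is a linear intensity from which background and a spatial trend were removed, with no scaling from array to array, per the file headers. The deposited median spot and background signals, used for normexp, are raw intensities. Control spots and outlier-flagged spots were left out, spots of a probe were averaged as log2, and the log2 of the array's 75th percentile was subtracted. Accessions, without versions, were matched to a RefSeq table of GRCm38.p6 (27229 of 55668 analysed probes named). That table was used for names only, since the array grid lists mm9, and the promoter coordinates belong to GRCm38.p6 alone.

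The groups were compared by limma 3.58.1 (R 4.3.3), with lmFit and two-sided eBayes tests and no covariate, fitted to all 32283 measured probes with Benjamini-Hochberg adjustment and a threshold of 0.05. With 2 arrays a group, exact permutation cannot give a p below 0.333 and was not used. The fit was tested on simulated data, where it returned the planted sizes on average but passed none of the planted changes near the size of the Cyp1a1 difference, so its counts of 0 do not show that values did not differ. All arrays shared 1 slide and scan, per the file headers, so neither could be a block. Replicates are called biological in the series' design text.

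All member probes are named, together with up to 4 genes of each pathway list by smallest p and, for Cyp1a1 and Ahr, the 3 genes nearest in profile. The members and lists were chosen with earlier results of these data known. Alternatives were quantile scaling, normexp, the authors' deposited value table (proportional to the processed signal within each array), stricter and absent filters, 1 feature per gene, an intensity trend, array weights, a replicate block and leaving out each array. Entries of the lists with no matched accession were not analysed here.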

Additional observations from a re-analysis of the deposited data

How the results depend on the processing

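The count of probes past the threshold was 0 among the members and 0 over all probes in each of the 13 alternatives run, where the smallest adjusted p was 0.0849. Cyp1a1 stayed above 0 in all 13, from 0.68 with normexp to 1.60 without sham replicate 2. The differences of all measured member probes other than Cyp1a1, small or large, changed sign when some array was left out. Ahr ranged from -0.32 to 0.11, Arnt from -0.18 to 0.01 and from -0.10 to 0.28, Cyp1b1 from -0.24 to 0.17, Tiparp from -0.03 to 0.24 and from -0.03 to 0.39, and Aldh3a1 from -0.20 to 2.50 and from -2.15 to 5.39 on their brighter and second probes. A fit that leaves 1 array in a group assumes that it varies like the other group. With the replicate number as a block (replicate block) the Cyp1a1 difference was 1.31 (limma adjusted p = 0.643) and 0 member probes were called. The labels do not say that a number marks a shared animal, litter or day, and the deviations of same-numbered arrays correlated at 0.07 across probes. List medians also shifted when an array was left out. That of further AHR target genes went from -0.05 to between -0.31 and 0.07 (0.05 with the authors' deposited table). That of the haem and electron donor genes went to between -0.25 and 0.23, and that of kynurenine pathway enzymes to between -0.56 and -0.14. The median of ARNT partners ranged from -0.04 to 0.33, of HIF target genes from -0.02 to 0.24 and of complex partners from -0.06 to -0.01. Signal over background limits Cyp1a1, whose dimmer sham signal was 1.42 times the lowest called well above background, and leaves Ahrr and Cyp1a2 with no comparison.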
